A study of Mus musculus with 130 samples.

Results

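The Zscan4 genes are a cluster of near-identical copies on mouse chromosome 7 that encode SCAN-domain zinc-finger proteins. They were taken here as the 6 genes named Zscan4a to Zscan4f, 6 of the 30388 genes with a count, and all 6 passed the filter on low counts that left 13214 genes for testing. Estimated counts were summed per gene and given as CPM, the usual depth-scaled read count, with TMM factors that correct library sizes for composition. The members were measured in 130 single 2-cell embryos of the strain B6129F1 with oligo-dT primed Smart-seq2 libraries, which read whole polyadenylated transcripts. The 80 treated embryos were kept in 10 µM SR1848, a small molecule used to block the nuclear receptor Nr5a2, and the 50 control embryos in 0.1% DMSO, its solvent. Both groups came from zygotes isolated 5 hours after fertilization, were treated from 6 hours, and were cultured in KSOM medium without an oil overlay. The design text lists 56 DMSO embryos, and 6 of them were not analysed here. The titles of the controls carry the mark NT, while their treatment field gives DMSO.

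Zscan4 transcripts are made in a short burst at the 2-cell stage, when the mouse embryo first transcribes its own genome, and in rare embryonic stem cells that pass through a 2-cell-like state. In stem cells, ZSCAN4 is known for telomere elongation by recombination and for genome stability. The transcription factor Dux is a known activator of the cluster in 2-cell-like cells, and Dppa2 and Dppa4 act upstream of Dux there. Nr5a2 binds DNA as a monomer at sites that hold AAGGTCA.

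The cluster lies on GRCm38 between the first base of Zscan4a and the last base of Zscan4f, chr7:10794242-11402318, a span of 608 kb. Zscan4a (ENSMUSG00000110097.1, minus strand) is annotated in GENCODE M21 as an unprocessed pseudogene, and Zscan4b, Zscan4c, Zscan4d, Zscan4e and Zscan4f as protein-coding. Zscan4c (chr7:11005745-11010547) and Zscan4f (chr7:11397915-11402318) run on the plus strand. Zscan4b (chr7:10900740-10905050), Zscan4d (chr7:11161374-11166159) and Zscan4e (chr7:11306378-11310682) run on the minus strand. A further 3 annotated copies, Zscan4-ps1, Zscan4-ps2 and Zscan4-ps3, carry pseudogene symbols but are annotated as protein-coding. They are not members, and their values are given beside those of the members because they share reads.

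The copies differ at few bases, which sets how well reads can be told apart. Between pairs of members, the longest annotated transcripts were 96.6% to 99.7% identical. Zscan4b and Zscan4e differed at 5 of 1722 aligned bases and Zscan4c and Zscan4f at 9 of 1806, while Zscan4b and Zscan4d differed at 60 of 1779. The stretch of 60 coding bases with the most variable positions shows the differences, with the 9 variable positions in capitals. It lies in exon 4 of each transcript, and in Zscan4a it is the aligned stretch of the pseudogene.
Zscan4a, chr7:10795661-10795720, minus strand: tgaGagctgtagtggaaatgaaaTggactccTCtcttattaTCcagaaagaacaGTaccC
Zscan4b, chr7:10901659-10901718, minus strand: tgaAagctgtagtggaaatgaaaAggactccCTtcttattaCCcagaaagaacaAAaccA
Zscan4c, chr7:11009072-11009131, plus strand: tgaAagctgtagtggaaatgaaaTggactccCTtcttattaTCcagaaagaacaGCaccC
Zscan4d, chr7:11162786-11162845, minus strand: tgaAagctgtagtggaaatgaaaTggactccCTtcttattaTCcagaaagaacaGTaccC
Zscan4e, chr7:11307288-11307347, minus strand: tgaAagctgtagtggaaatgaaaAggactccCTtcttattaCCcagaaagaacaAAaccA
Zscan4f, chr7:11401265-11401324, plus strand: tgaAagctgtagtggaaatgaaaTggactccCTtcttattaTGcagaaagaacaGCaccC
Zscan4b and Zscan4e were identical over this stretch. Zscan4c differed from Zscan4d at 1 base and from Zscan4f at 1 base, and Zscan4a differed from Zscan4b and from Zscan4e at 8. Of all 31-base windows, the share found in no transcript of another gene was 35% in Zscan4d and 23.3% in Zscan4a. It was 8.46% in Zscan4c, 2.39% in the long Zscan4f transcript (Zscan4f-202), and between 3.19% and 6.21% in the transcripts of Zscan4b and Zscan4e. In the short Zscan4f-201, with 491 windows, it was 24.2%. Values of Zscan4d and Zscan4a therefore rest on more sequence of their own than those of Zscan4b, Zscan4c, Zscan4e and the long Zscan4f transcript. The split between these by the authors' counting is uncertain.

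The promoters of 4 members were in the RefSeq table (GRCm38.p6), and 3 are shown because they differ in the letters that match a Dux motif. Each is the 250 bases before the RefSeq start, read on both strands for the motifs described after them, with each match in capitals.
Zscan4f, chr7:11397665-11397914, plus strand: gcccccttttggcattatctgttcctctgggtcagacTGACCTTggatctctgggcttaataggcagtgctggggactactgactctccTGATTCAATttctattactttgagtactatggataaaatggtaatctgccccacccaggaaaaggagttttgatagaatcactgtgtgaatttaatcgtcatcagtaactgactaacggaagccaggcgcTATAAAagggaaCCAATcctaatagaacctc
Zscan4d, chr7:11166149-11166398, minus strand: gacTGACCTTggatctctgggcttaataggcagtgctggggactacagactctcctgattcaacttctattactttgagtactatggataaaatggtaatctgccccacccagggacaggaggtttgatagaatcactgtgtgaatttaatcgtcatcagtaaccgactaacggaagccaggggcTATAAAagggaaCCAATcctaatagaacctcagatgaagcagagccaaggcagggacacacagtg
Zscan4b, chr7:10905051-10905300, minus strand: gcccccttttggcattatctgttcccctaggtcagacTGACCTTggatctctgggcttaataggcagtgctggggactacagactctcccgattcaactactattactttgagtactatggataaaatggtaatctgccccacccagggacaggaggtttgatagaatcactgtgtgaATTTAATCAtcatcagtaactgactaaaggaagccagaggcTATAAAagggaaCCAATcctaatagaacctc
Over the window of 250 bases before to 50 bases after the start, the 4 promoters were 95.3% to 99.3% identical, with Zscan4c and Zscan4f the closest pair. AAGGTCA, the core of the Nr5a2 site, occurred on the reverse strand in all 4 promoters, as in 4.72% of the 32851 promoters of the table. In Zscan4f and Zscan4b it lay at -213 to -207 relative to the start, in Zscan4c at -236 to -230 and in Zscan4d at -247 to -241. TCAAGGTCA, a longer form of the Nr5a2 site that holds AAGGTCA, occurred in 0 of the 4 and in 0.423% of all promoters. All 4 promoters matched it on the reverse strand at every base but the first. Longer forms with another first base were not searched, so this count does not show that the members lack a longer Nr5a2 site. TGATTNAAT, the first letters of the Dux consensus, occurred in Zscan4f, Zscan4c and Zscan4b and not in Zscan4d, against 0.718% of all promoters. In Zscan4b the match lay on the reverse strand at -72 to -64, away from its place in Zscan4f at -161 to -153. TGCACAC, a letter string reported for ZSCAN4 binding, occurred in 0 of the 4 and in 4.40% of all promoters. The CCAAT box was in all 4, as in 37.4% of all promoters. The TATA box TATAAA was also in all 4, as in 13.6% of all promoters.

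All 6 members rose with SR1848. The summed level of the 6 was lowest at 30.1, median 583 and highest at 3335 CPM in SR1848 embryos, against 43.6, 111 and 435 CPM in DMSO embryos. Its mean was 687 ± 518 CPM with SR1848 and 126 ± 72.9 CPM with DMSO (SD, n = 80 and 50), a ratio of 5.44. The highest SR1848 embryos lay far above every control: 52 of 80 exceeded the highest DMSO embryo, and 78 of 80 exceeded the DMSO median. The groups still overlapped, and 1 SR1848 embryo lay below the lowest control. Together the members held 0.0623% of all counts with SR1848 and 0.0142% with DMSO. Each library is a whole embryo, so a change in all of its cells and a change in some of them cannot be told apart.

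**Figure D1:**
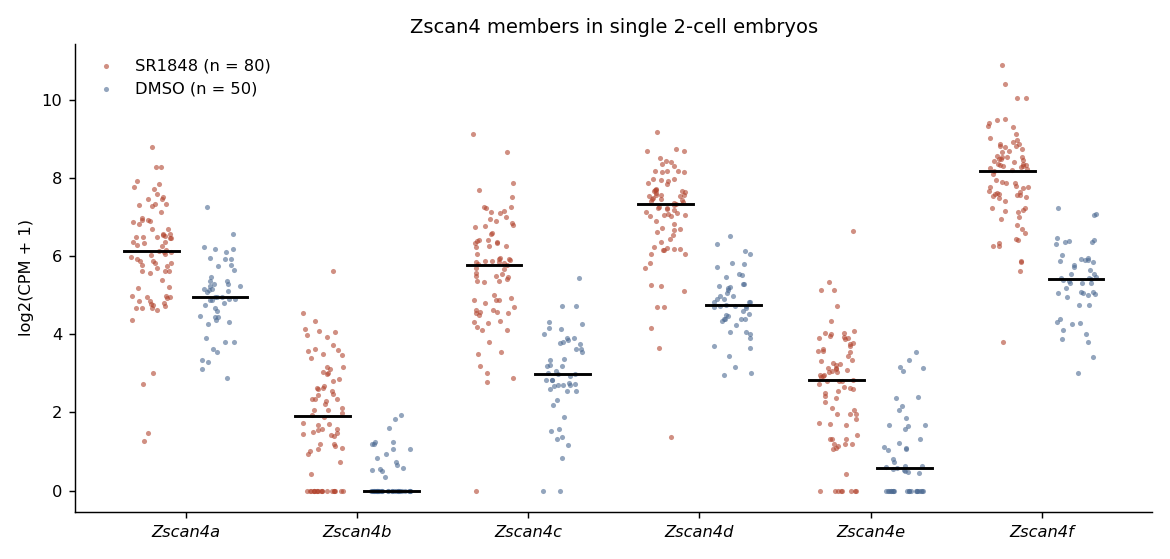
Each point is one embryo, with log2(CPM + 1) on the vertical axis and the 6 members along the horizontal one, SR1848 (n = 80) left of DMSO (n = 50). Black lines are medians, and they lie higher with SR1848 for each member (Zscan4f 291 against 41.4 CPM, Zscan4b 2.77 against 0 CPM).

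Zscan4f was the most abundant member. It ran from 12.9 over a median of 291 to 1892 CPM in SR1848 embryos, against 7.10, 41.4 and 151 CPM in DMSO embryos. In 79 of 80 SR1848 embryos it lay above the DMSO median, and in 61 it lay above every control. Its log2 fold change was 2.81 ± 0.208 (SE), a 7.03-fold rise (edgeR's quasi-likelihood test, Benjamini-Hochberg adjusted p = 7.1e-26).

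Zscan4d, the member with the largest share of windows of its own, ran from 1.57 over a median of 159 to 575 CPM with SR1848, against 6.77, 25.8 and 90.4 CPM with DMSO. Of the 80 SR1848 embryos, 60 lay above every control and 1 below every control. Its log2 fold change was 2.49 ± 0.194 (SE), or 5.62-fold (edgeR adjusted p = 3.1e-24). Zscan4c is the copy whose promoter drives reporters of the 2-cell-like state in stem cells. It ran from 0 over 54.2 to 563 CPM with SR1848, against 0, 6.92 and 42.4 CPM with DMSO. It was above every control in 48 of 80 SR1848 embryos and rose 8.03-fold (log2 3.0 ± 0.277 SE, edgeR adjusted p = 2.2e-19).

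Zscan4a rose least. It ran from 1.39 over 68.7 to 446 CPM with SR1848, against 6.36, 30.1 and 152 CPM with DMSO. The groups overlapped widely, with 15 of 80 SR1848 embryos above every control, 62 above the DMSO median and 3 below every control. Its log2 fold change was 1.31 ± 0.213 (SE), or 2.47-fold (edgeR adjusted p = 1.8e-08), and it lost the call when libraries were scaled to oocyte transcripts (log2 0.19, adjusted p = 0.42).

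Zscan4b and Zscan4e were the low members. Zscan4b ran from 0 over 2.77 to 47.9 CPM with SR1848, against 0, 0 and 2.80 CPM with DMSO. It had a count in 61 of 80 SR1848 embryos and in 18 of 50 DMSO embryos. The 32 controls at 0 counts allow a level of up to 0.353 to 0.811 CPM each, taking 3 counts as the limit, for counting error only. After thinning to the same total, which left out 6 SR1848 embryos and 1 DMSO embryo with lower totals, it had a count in 59 of 74 SR1848 embryos and 18 of 49 DMSO embryos. At least 1 CPM of Zscan4b was reached in 58 of 80 SR1848 embryos and 9 of 50 DMSO embryos. It therefore passed the filter on low counts through its SR1848 values. Its log2 fold change was 3.57 ± 0.482 (SE; edgeR adjusted p = 3.4e-11), which rests on a control level near 0. Zscan4e ran from 0 over 6.07 to 99.2 CPM with SR1848, against 0, 0.501 and 10.8 CPM with DMSO. It had a count in 72 of 80 SR1848 embryos and 31 of 50 DMSO embryos, and rose by 2.40 ± 0.409 on the log2 scale (SE, edgeR adjusted p = 6.5e-08). At least 1 CPM of Zscan4e was reached in 71 of 80 SR1848 embryos and 20 of 50 DMSO embryos, so the same limit holds for it.

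Against the whole table, 46.6% of tested genes rose and 35.8% fell with SR1848, so a call alone is common. With libraries scaled to oocyte transcripts, rises made up 14.2% of the calls, in place of 56.6%. The size of the change was less common: the median log2 fold change was 2.65 over the 6 members and 0.27 over all tested genes. Zscan4b had a larger log2 fold change than 98.8% of tested genes, Zscan4c than 98.2%, Zscan4f than 97.9%, Zscan4d than 97.2%, Zscan4e than 96.9% and Zscan4a than 80.4%. The places of Zscan4b and Zscan4e rest on control medians of 0 and 0.501 CPM. As a difference of mean log2(CPM + 1), the order was Zscan4f (2.645), Zscan4c (2.641), Zscan4d (2.29), Zscan4e (1.68), Zscan4b (1.53) and Zscan4a (1.06).

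The 3 other copies rose as well. Zscan4-ps2, which differs from Zscan4f at 4 of 1806 aligned bases, had a median of 20.1 CPM with SR1848 and 2.81 CPM with DMSO (log2 3.10, edgeR adjusted p = 5.7e-15). Zscan4-ps3 had medians of 22.1 and 6.53 CPM with SR1848 and DMSO (log2 2.23, edgeR adjusted p = 5.8e-12), and Zscan4-ps1 of 17 and 5.40 CPM (log2 1.94, edgeR adjusted p = 3.3e-09). With all 9 copies summed, the log2 ratio of the group means was 2.44, against 2.45 for the 6 members.

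**Figure D2:**
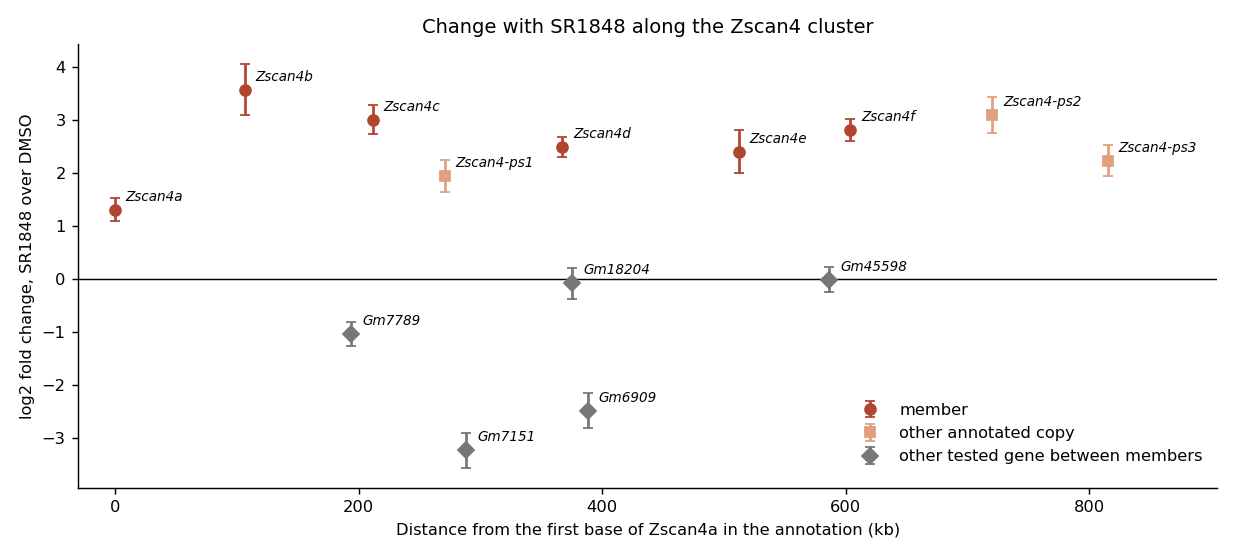
The log2 fold change, SR1848 over DMSO, is plotted against the distance in kb from the first annotated base of Zscan4a, with standard errors as bars. The members and the other copies all lie above 0, and the 5 other tested genes between them lie below it, with Gm18204 and Gm45598 close to it. These 5 genes averaged at most 6.79 CPM in either group.

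Apart from the Zscan4 copies, none of the 5 tested genes that lie between the members rose. Of 30 other annotated genes between Zscan4a and Zscan4f, 25 had a count and 5 could be tested. Over all tested genes 46.6% rose and 35.8% fell. The 5 were low, with means from 0.626 to 3.72 CPM with SR1848 and from 3.07 to 6.79 CPM with DMSO. Gm7151 and Gm6909 averaged 0.704 and 0.626 CPM with SR1848, so they were kept for testing mainly through DMSO embryos. Genes this low are a weak comparison for the members. Gm7151 (log2 -3.23 ± 0.327, SE), Gm6909 (-2.48 ± 0.338, SE) and Gm7789 (-1.04 ± 0.219, SE), all annotated pseudogenes, fell (edgeR adjusted p at most 9.5e-06). Gm18204 (log2 -0.08 ± 0.297, SE) and Gm45598 (-0.02 ± 0.235, SE) did not pass the test. On the left side, Nlrp4b, a gene of the Nlrp family, averaged 41 ± 21 CPM with SR1848 and 24.6 ± 9.70 CPM with DMSO (SD, n = 80 and 50; log2 0.74, edgeR adjusted p = 1.3e-06; -0.57 with libraries scaled to oocyte transcripts). The other nearest genes with a count, Vmn1r71 on the left and Gm18639 and Gm9604 on the right, were too low to test.

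Levels between members were compared per kilobase of transcript. With SR1848 the medians were 195 CPM per kb for Zscan4f, 70.2 for Zscan4d, 30.2 for Zscan4a, 23.8 for Zscan4c, 3.47 for Zscan4e and 1.57 for Zscan4b. With DMSO they were 26.9 for Zscan4f, 13.2 for Zscan4a, 11.4 for Zscan4d, 3.02 for Zscan4c, 0.286 for Zscan4e and 0 for Zscan4b. The Zscan4f values add both transcripts, and the short Zscan4f-201 gave 58 of a mean of 226 CPM per kb with SR1848. The long Zscan4f transcript alone had medians of 146 CPM per kb with SR1848 and 20.5 with DMSO. Zscan4f was thus first in both groups, while Zscan4a and Zscan4d changed places. In SR1848 embryos Zscan4d lay above Zscan4a in 72 of 80, Zscan4a above Zscan4c in 57 of 80 and Zscan4e above Zscan4b in 52 of 80. In DMSO embryos Zscan4a lay above Zscan4d in 30 of 50 only, so these neighbours did not separate beyond their spread.

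The make-up of the summed level shifted from Zscan4a towards Zscan4f. Shares were taken in each embryo over the counts of the 6 members, and every embryo had at least 20 such counts. The share of Zscan4a averaged 12.8% ± 4.54 with SR1848 and 29.1% ± 11.9 with DMSO (SD, n = 80 and 50). That of Zscan4f averaged 48.7% ± 10.6 with SR1848 and 37.3% ± 10.6 with DMSO. Both differences, -16.3 and 11.4 percentage points, had an adjusted p of 3e-05 in two-sided permutation tests adjusted over the 6 comparisons of shares, and their raw p of 1e-05 is the smallest that 100000 resamples can give. Shares of Zscan4c (9.84% and 7.20% with SR1848 and DMSO) and Zscan4b (0.669% and 0.332%) also differed (permutation test, adjusted p = 0.0048 each). Those of Zscan4d (26.9% and 24.8%; adjusted p = 0.25) and Zscan4e (1.14% and 1.23%; adjusted p = 0.70) did not pass the permutation test. Shares add up to a whole, so a gain in one member lowers the others, and the split between close copies is uncertain.

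**Figure D3:**
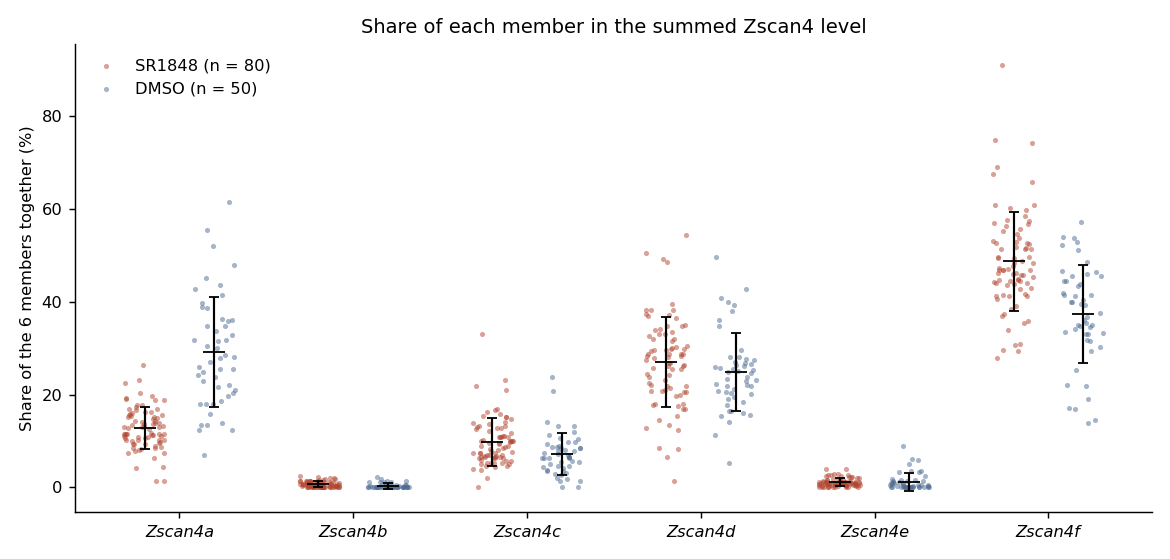
Each point is the share of one member, in percent, in the summed level of the 6 members in one embryo, SR1848 (n = 80) left of DMSO (n = 50), with the mean and SD in black. The Zscan4a mean is lower with SR1848 (12.8% against 29.1%) and the Zscan4f mean higher (48.7% against 37.3%).

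Transcripts moved the same way as genes. The long Zscan4f transcript averaged 308 ± 266 CPM with SR1848 and 44 ± 28.6 CPM with DMSO, and the short Zscan4f-201 of 521 bases 30.2 ± 28.2 and 4.03 ± 3.01 CPM (SD, n = 80 and 50). In the authors' deposited table, which tests transcripts one by one, the log2 fold change was 2.46 for the long Zscan4f transcript, 2.16 for Zscan4d, 2.69 for Zscan4c and 0.96 for Zscan4a. In the authors' deposited table the Zscan4e transcript with fewer counts (ENSMUST00000166753.3) had a log2 fold change of 2.39 with an adjusted p of 0.17, and it was the one transcript of the 6 members above 0.05 there.

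The spread between embryos was wide. On the log2(CPM + 1) scale the SD of the summed level was 1.11 between SR1848 embryos and 0.71 between DMSO embryos. A summed level above 200 CPM was found in 72 of 80 SR1848 embryos and 5 of 50 DMSO embryos, and one above 500 CPM in 48 of 80 and 0 of 50. The 8 highest SR1848 embryos held 26.9% of the summed CPM of their group, and the 5 highest DMSO embryos held 23.4% of theirs. The highest SR1848 embryo, number 64, had 3335 CPM and also the most detected genes, 18072. SR1848 embryo 66 was lowest with 30.1 CPM, with 0 counts of Zscan4b, Zscan4c and Zscan4e. SR1848 embryo 13 had 105 CPM, of which Zscan4f gave 95.3 CPM. In DMSO embryo 13, the highest control at 435 CPM, Zscan4a (152 CPM) and Zscan4f (151 CPM) were nearly level.

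**Figure D4:**
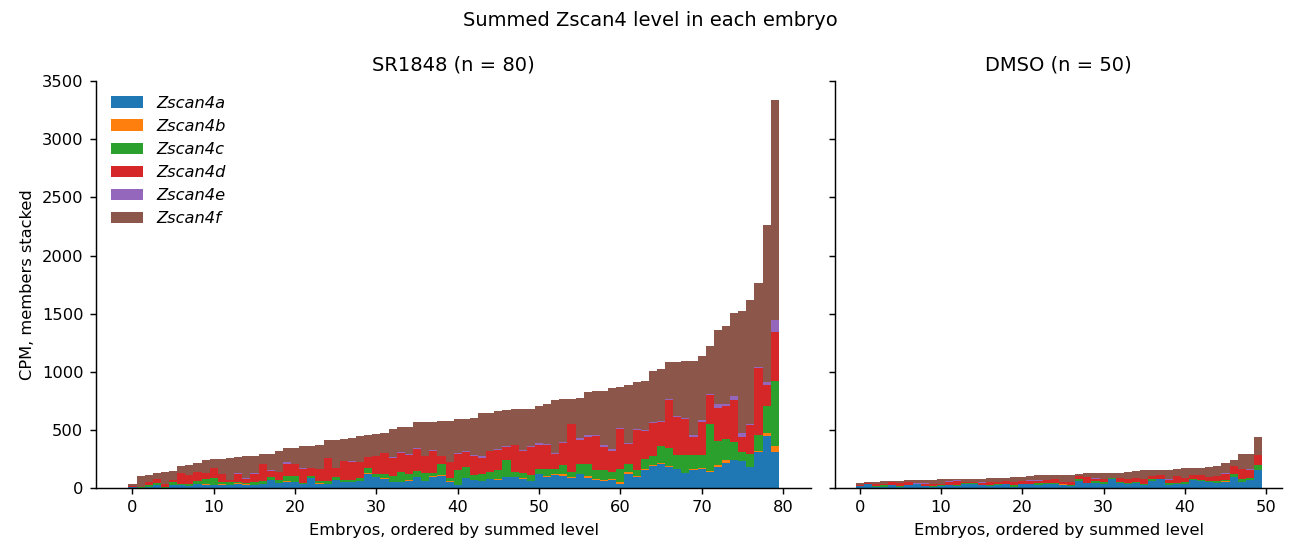
Each bar is one embryo, ordered by the summed level of the 6 members in CPM, with members stacked, SR1848 (n = 80) left of DMSO (n = 50) on the same vertical axis. Sums reach 3335 CPM with SR1848 and 435 CPM with DMSO, and Zscan4f forms the largest part of most SR1848 bars.

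Members varied together between embryos of one group. Between Zscan4a, Zscan4c, Zscan4d and Zscan4f, Spearman's rho over the 6 pairs ran from 0.73 to 0.84 in 80 SR1848 embryos and from 0.25 to 0.66 in 50 DMSO embryos. Pairs with Zscan4b or Zscan4e ran from 0.39 to 0.73 with SR1848 and from -0.00 to 0.36 with DMSO. These are descriptions: the copies share reads and libraries.

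The summed level followed that of Tcstv1 and Tcstv3, a pair of genes of the 2-cell burst. Their summed level ran from 10.8 over 512 to 1726 CPM with SR1848, against 8.37, 30.9 and 85.7 CPM with DMSO. On the log2(CPM + 1) scale, Pearson's r with the summed Zscan4 level was 0.60 within 80 SR1848 embryos (rho 0.52) and 0.66 within 50 DMSO embryos (rho 0.65). Without the 2 embryos farthest from the median of Tcstv it was 0.60 with SR1848 and 0.62 with DMSO. For Duxf3, the Dux gene, whose counts are low, r was 0.15 with SR1848 and 0.19 with DMSO, and for Nr5a2 it was 0.04 and 0.06. For Dppa2 r was 0.21 with SR1848 and -0.05 with DMSO, and for Dppa4 0.24 with SR1848 (rho 0.28) and -0.13 with DMSO (rho -0.17). The summed oocyte transcripts had r -0.19 with SR1848 and 0.40 with DMSO, and the total count r -0.28 and 0.11. All values come from the same libraries and scaling, and 14 such relations were computed and are given without a test.

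**Figure D5:**
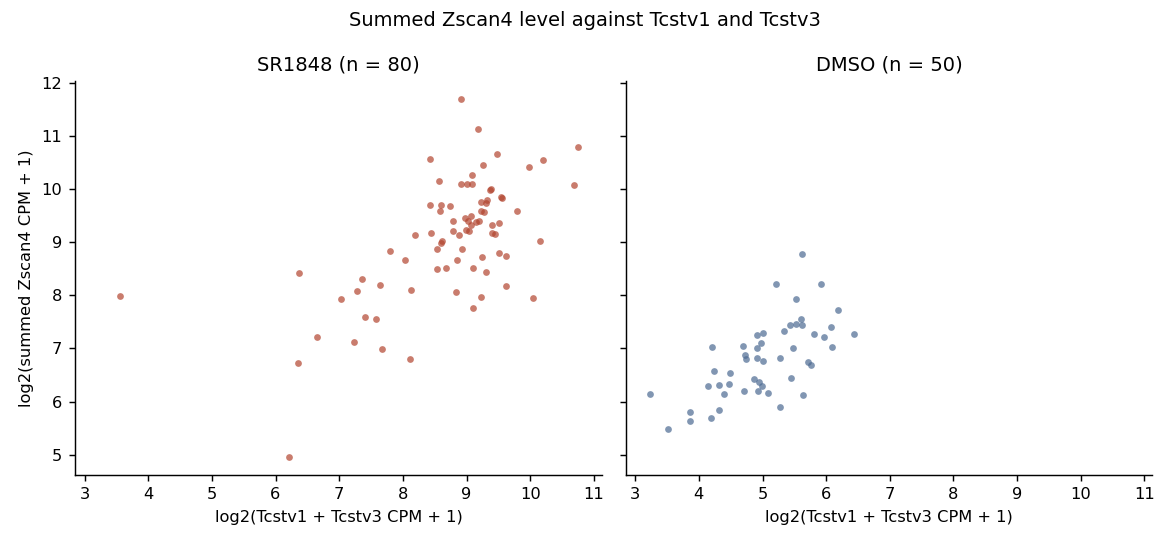
Each point is one embryo, with log2(CPM + 1) of the summed Tcstv1 and Tcstv3 on the horizontal axis and of the 6 summed Zscan4 members on the vertical axis, SR1848 left (n = 80, r 0.60) and DMSO right (n = 50, r 0.66). SR1848 embryos reach higher on both axes.

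The genes whose embryo-to-embryo pattern was most like the summed level were ranked by the lower of their within-group Spearman correlations, over 8974 genes outside the family. The first 3 were Eif1ad15 (rho 0.74 with SR1848 and 0.76 with DMSO), Gm11238 (0.70 and 0.70) and Eif1ad6 (0.70 and 0.76). They rose by 2.80, 3.52 and 2.61 on the log2 scale (edgeR adjusted p at most 3.7e-19). Further down, Rfpl4b, Dcdc2c, Limch1 and Olfr1565 had a rho of at least 0.65 in both groups and did not pass the test of SR1848 against DMSO (adjusted p between 0.078 and 0.88). Olfr328 had a log2 fold change of 0.36 (edgeR adjusted p = 0.044), which did not pass with RLE size factors, total counts only, DESeq2 or limma-voom and was -0.74 with oocyte scaling. Ubl5b and Ubl5c, whose values are identical, fell: each averaged 8.24 ± 7.33 CPM with SR1848 and 39.7 ± 18.5 CPM with DMSO (SD, n = 80 and 50; log2 -2.27, edgeR adjusted p = 3.1e-21).

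Other genes of the 2-cell burst mostly rose with the members. Of 31 tested companion genes 23 rose, 6 fell and 2 did not pass, with a median log2 fold change of 1.65 (0.27 over all tested genes). Over all tested genes 46.6% rose and 35.8% fell. Gm20767 had medians of 155 and 10.1 CPM with SR1848 and DMSO (log2 4.01), Tcstv1 of 221 and 14.2 CPM (3.92) and Tcstv3 of 272 and 15.6 CPM (3.81), and for each of them 75 to 77 of the 80 SR1848 embryos exceeded the highest control. Sp110, a nuclear body gene, fell, with medians of 65.2 and 254 CPM (log2 -1.91). Tmem92, the companion with most counts, had medians of 461 and 323 CPM (log2 0.51, and -0.66 with oocyte scaling).

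Reported activators of the 2-cell-like state split. Duxf3 had a lowest, median and highest level of 0, 3.82 and 93.2 CPM with SR1848, against 0, 0.512 and 2.92 CPM with DMSO. It rose (log2 3.64 ± 0.407 SE, edgeR adjusted p = 9.1e-15), and Tbx3 and Nelfa rose by 0.59 and 0.32 on the log2 scale. These small rises depended on the fit: Nelfa had 0.16, 0.10 and 0.16 and did not pass with RLE size factors, total counts only or DESeq2, Tbx3 had 0.32 and did not pass with limma-voom, and with oocyte scaling both turned negative (-0.95 and -0.43). Dppa4 fell, with medians of 19.5 and 466 CPM with SR1848 and DMSO (log2 -4.20), and all 80 SR1848 embryos lay below every control. Dppa2 had medians of 62.3 and 334 CPM (log2 -2.48) and Nr5a2 of 9.13 and 92.9 CPM (log2 -3.20). Of 21 reported repressors, which hold the state down in stem cells, 7 rose, 10 fell and 4 did not pass (median log2 -0.32). The shares over all tested genes were 46.6% higher and 35.8% lower. Hdac1, a histone deacetylase, had medians of 45.7 and 258 CPM with SR1848 and DMSO (log2 -2.41). Ncl, the nucleolar protein nucleolin, had 127 and 364 CPM (-1.51), Mga, a subunit of a Polycomb complex, 35.9 and 155 CPM (-2.08) and its partner L3mbtl2 31 and 107 CPM (-1.60). Rif1, the most abundant of them, had 395 and 520 CPM (-0.32), and did not pass with upper-quartile factors (-0.15). The 7 repressors that rose were Lin28a (log2 1.28), Ehmt2 (0.94), Hdac2 (0.80), Chaf1a (0.73), Daxx (0.59), Max (0.52) and Pias4 (0.31). Max did not pass with total counts only, nor Pias4 with RLE size factors, total counts only, DESeq2 or limma-voom. With oocyte scaling 0 repressors rose.

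Genes of telomere upkeep and reported Zscan4 partners did not move as one. Of 22 tested, 7 rose, 12 fell and 3 did not pass (median log2 -0.42), where 46.6% of all tested genes rose and 35.8% fell. Acd, a shelterin subunit, rose, with medians of 186 and 60.8 CPM with SR1848 and DMSO (log2 1.62). Dkc1, the dyskerin subunit of telomerase, had medians of 80.5 and 333 CPM (log2 -1.88) and Nbn, of the MRN break-repair complex, 5.34 and 25 CPM (log2 -2.04), and both fell. Among 9 other tested Zscan genes, which share the SCAN domain, 5 fell, 2 rose and 2 did not pass (median log2 -0.38). Zscan5b ran from 0 over 42.7 to 142 CPM with SR1848, against 302, 646 and 911 CPM with DMSO, so the groups did not overlap (log2 -3.69 ± 0.181 SE, edgeR adjusted p = 2.1e-41). Zscan26 (log2 -3.51), Zscan21 (-2.07), Zscan12 (-1.71) and Zscan29 (-0.38) fell, and Zscan2 (1.71) and Zscan20 (0.86) rose. Zscan20 did not pass with total counts only (0.65), Zscan29 did not with upper-quartile factors (-0.20), and with oocyte scaling neither Zscan2 (0.37) nor Zscan20 (-0.32) did.

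Oocyte transcripts, RNA laid down before fertilization that embryos of this stage degrade, were higher with SR1848. Their summed level over 40 listed genes ran from 19087 over 42485 to 79909 CPM with SR1848, against 9746, 18047 and 31606 CPM with DMSO. Of 38 tested, 33 rose, 3 fell and 2 did not pass (median log2 0.87), where 46.6% of all tested genes rose and 35.8% fell. Zbed3 had medians of 10974 and 2666 CPM with SR1848 and DMSO (log2 2.20), Cpeb1 of 234 and 59 CPM (1.97), Lhx8 of 87 and 23.8 CPM (1.74) and Dazl of 149 and 45.5 CPM (1.70). Their part in the Zscan4 result was not tested. With libraries scaled to these transcripts, Zscan4b, Zscan4c, Zscan4d, Zscan4e and Zscan4f still passed the edgeR test, with log2 fold changes of 2.65, 1.96, 1.45, 1.27 and 1.67 relative to a median of -0.96 over all tested genes. The scaling factor was the summed count of the 40 oocyte genes, in which Zbed3, Spin1, Omt2b and Omt2a had the highest means. Their means were 12970, 11701, 4946 and 4535 CPM with SR1848, and 2831, 4527, 3585 and 3099 CPM with DMSO. That scaling also moved the list counts: 17 companion genes rose and 10 fell, 1 and 4 of the activators, 0 and 18 of the repressors, 1 and 20 of the telomere and partner genes, 0 and 6 of the other Zscan genes, and 6 and 21 of the oocyte transcripts themselves. Of all 13323 genes tested with it, 1425 rose and 8595 fell, so a fall was common in any list.

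Depth and markers of other cell types were compared as well. With log2 total count as covariate all 6 members passed the edgeR test, with log2 fold changes from 1.22 (Zscan4a) to 3.58 (Zscan4b). The part of other cell types in the Zscan4 result was not tested. Total counts ran from 2705973 over 4617994 to 7773361 per SR1848 embryo and from 3150008 over 5437704 to 8379648 per DMSO embryo, with medians of 15576 and 16143 detected genes. All 7 markers of the 2-cell embryo were detected, and 6 of them rose, as did 46.6% of all tested genes. The 12 cumulus markers summed to a median of 6.43 CPM with SR1848 and 4.93 CPM with DMSO. One SR1848 embryo, number 12, reached 501 CPM; its summed Zscan4 level was 111 CPM, and without it the log2 ratio of the group means was 2.46. The 6 sperm markers had medians of 1.65 and 0.649 CPM. Of the blood list Hba-a1 had medians of 68.4 and 11.8 CPM (log2 2.67, edgeR adjusted p = 8.3e-21), while the medians of Hbb-bs, Alas2 and Ptprc were 0 in both groups. Of 6 trophectoderm markers, 3 could be tested and rose, Krt18 most (34.7 and 5.52 CPM), and the median of Cdx2 was 0 in both groups. The labels do not tie embryos to females, culture drops or plates, so p-values cover only the variation among these libraries, which may be technical in part.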

How the data were processed

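Single 2-cell embryos were measured with Smart-seq2, 80 with SR1848 and 50 with DMSO, grouped by their titles. The submitters' processing notes list kallisto 0.46.1, DESeq2 1.32.0, Trim Galore 0.6.2, bcl2fastq and R 3.5.1, as well as the builds hg19 and mm10 without saying what each was used for. The authors deposited kallisto estimated counts per transcript (119358 entries, 28.1% of values not whole within 1e-06). They also deposited a DESeq2 comparison per transcript, whose log2 fold changes and adjusted p-values are quoted only where that table is named.

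Counts were summed per gene and rounded. Transcripts without a gene, 1731 in number, carried 0.741% of counts and 5 other entries (B1, B2, an Nr5a2 gene-identifier entry and a pair of GFP entries) 0.0258%, and these stayed out of library sizes and tests. Genes kept by filterByExpr went into edgeR 4.0.16 under R 4.3.3 with TMM factors, a robust quasi-likelihood fit, a two-sided test, Benjamini-Hochberg adjustment over 13214 genes, threshold 0.05, no covariate. The same script, tested on simulated data for this comparison, recovered 100% of the 97 tested genes changed by 1.5 on the log2 scale, among 13214 genes. The simulation changed 200 genes, as many up as down, with a single dispersion for all genes. In the data 10895 genes changed, so the simulation does not test the scaling under so wide a change. CPM values use TMM-scaled library sizes. Shares were compared by permutation (scipy 1.17.1 and numpy 2.4.6 with 100000 resamples), and transcripts were aligned with MAFFT 7.526. Counts carry no molecular identifiers, so limits cover counting error only. Within each group no 2 libraries agreed within sampling noise.

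Annotation is GENCODE M21 on GRCm38, and promoters are from RefSeq (GRCm38.p6), where 4 of the 6 members matched. Members, gene lists and motifs were chosen with earlier results of these data known, so the counts over lists are descriptions. Genes named are the 6 members, the other Zscan4 copies, the genes between and beside the members, the 4 genes with the smallest p and the one with most counts in each list, and the 10 genes most like the summed level (mean of at least 5 CPM in each group). Nelfa, Tbx3, Zscan2, Zscan20, Zscan29, Spin1, Omt2a, Omt2b, the 7 repressors that rose and the marker genes were named after their values were seen. Alternatives were RLE, upper-quartile, total-count and oocyte-transcript scaling, limma 3.58.1 voom, DESeq2 1.42.0, a 5 CPM minimum or no filter at all, depth covariates, thinning to the 5th percentile of totals, leaving out low-depth embryos, a replicate block, embryos numbered up to or above 40, and single transcripts.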

Additional observations from a re-analysis of the deposited data

How the results depend on the processing

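Every member kept its direction under every alternative that gave a value, and all but Zscan4a kept its call under all of them. With libraries scaled to oocyte transcripts Zscan4a had a log2 fold change of 0.19 (edgeR adjusted p = 0.42); the cause was not tested. Over the alternatives the log2 fold change ran from 0.19 to 1.5 for Zscan4a, 2.65 to 3.88 for Zscan4b, 1.96 to 3.19 for Zscan4c, 1.45 to 2.67 for Zscan4d, 1.27 to 3.41 for Zscan4e and 1.67 to 3.0 for Zscan4f. Zscan4b was too low to be tested with thinned counts, the 5 CPM filter, the replicate block, embryos numbered up to 40 or single transcripts. The number of changed genes was 10895, and 17700 with no filter, where 30043 genes were tested. The log2 ratio of the mean summed level was 2.45, between 1.34 (oocyte scaling) and 2.63 (upper-quartile factors).

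No pairing by embryo number was seen: deviations of same-numbered embryos correlated between -0.16 and 0.113 (median 0.0234), and 1 of 50 pairs exceeded 0.1. Embryos with different numbers were not compared, so these values cannot exclude shared handling of same-numbered embryos. With the replicate block (100 embryos) the log2 fold change was 1.44 for Zscan4a, 3.01 for Zscan4c, 2.60 for Zscan4d, 3.41 for Zscan4e and 2.91 for Zscan4f, and 10089 genes changed; it changed no call of these 5 members. Leaving out SR1848 replicate 12 or replicate 64, and summing all 9 copies, were added after seeing the data; the log2 ratio was then 2.46, 2.37 and 2.44. Each share difference kept its sign and its side of the threshold where it was tested. Of 72 list counts under other settings 62 stayed within 1.5 times; oocyte scaling moved 9 of the others, and with total counts only 1 of the other Zscan genes rose, against 2.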
